A study of Mus musculus with 4 samples.

Results

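The genes described here encode the enzymes that oxidise and conjugate lipophilic molecules in the mouse mammary gland: cytochromes P450 (Cyp), aldehyde dehydrogenases (Aldh), glutathione S-transferases (Gst), UDP-glycosyltransferases (Ugt) and sulfotransferases (Sult). They were chosen by gene symbol alone, as those starting with Gsta, Gstm, Gstp, Gstt, Gsto, Gstk or Ugt, or with Cyp, Aldh or Sult followed by a digit, leaving out Cyp51 and probe sets that carry several gene symbols. This gave 153 of the 22690 probe sets on the array and 116 of 12394 named genes: 62 P450s, 17 aldehyde dehydrogenases, 17 glutathione S-transferases, 9 UDP-glycosyltransferases and 11 sulfotransferases. RNA came from mammary gland of female, nulliparous, age-matched mice of the FVB background, whose age the labels do not give, and was read on Affymetrix mouse arrays. The 4 groups were wild-type mice (WT) on standard chow, WT on chow with GW501516 for 1 week, MMTV-PPARd mice on standard chow and MMTV-PPARd mice on chow with GW501516 for 1 week. GW501516 is a synthetic ligand that activates the nuclear receptor PPARδ, and the mouse mammary tumour virus (MMTV) promoter drives the PPARd transgene mainly in mammary epithelium. The labels give the GW501516 content of the chow as 0.005% in one place and 0.001% in another. Each group was 1 array of RNA pooled from 5 mice, so no difference below has a replicate check and none was tested.

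P450s are haem enzymes of the endoplasmic reticulum and mitochondria that insert oxygen into drugs, pollutants, steroids, retinoids, vitamin D and fatty acids. Aldehyde dehydrogenases oxidise reactive aldehydes to acids, among them retinaldehyde to retinoic acid. Glutathione S-transferases, UDP-glycosyltransferases and sulfotransferases then attach glutathione, a sugar or a sulfate, which makes the products soluble or inactive. Liver holds the widest set of these enzymes, and fat tissue and epithelia each use their own selection. Several members are textbook targets of ligand-activated receptors: the Cyp4a genes and Aldh3a2 of PPARs, Cyp1a1 and Cyp1b1 of the aryl hydrocarbon receptor, Cyp24a1 of the vitamin D receptor and many Gst genes of NRF2.

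The promoter sequences below belong to members that differed by at least 2-fold in some comparison, and are shown because these genes are among those that carry the results that follow. RefSeq's table (build GRCm38.p6) held an entry for 6 of the 9 genes that differed by at least 2-fold in some comparison, and for 29 of the 38 genes that could be followed. Each line gives the 250 bases before the annotated start site, 5′ to 3′. Of the start sites given for Gstm1 the first listed is shown. Capitals mark exact matches on either strand to GCGTG (the core that the aryl hydrocarbon receptor binds), TGACNNNGC (the core of the antioxidant response element) or AGGTCA (a hexamer bound by many nuclear receptors).
Cyp1b1, chr17:79715062-79715311, minus strand: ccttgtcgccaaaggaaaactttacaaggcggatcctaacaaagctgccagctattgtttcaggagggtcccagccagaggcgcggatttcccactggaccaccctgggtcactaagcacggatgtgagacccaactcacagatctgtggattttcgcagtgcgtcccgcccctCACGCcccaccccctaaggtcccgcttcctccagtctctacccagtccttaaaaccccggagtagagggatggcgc
Cyp2f2, chr7:27119705-27119954, plus strand: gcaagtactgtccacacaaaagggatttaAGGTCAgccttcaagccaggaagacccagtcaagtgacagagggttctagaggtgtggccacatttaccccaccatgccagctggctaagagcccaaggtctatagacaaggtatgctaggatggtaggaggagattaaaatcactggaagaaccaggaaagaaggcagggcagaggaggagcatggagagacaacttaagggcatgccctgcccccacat
Gsta3, chr1:21240335-21240584, plus strand: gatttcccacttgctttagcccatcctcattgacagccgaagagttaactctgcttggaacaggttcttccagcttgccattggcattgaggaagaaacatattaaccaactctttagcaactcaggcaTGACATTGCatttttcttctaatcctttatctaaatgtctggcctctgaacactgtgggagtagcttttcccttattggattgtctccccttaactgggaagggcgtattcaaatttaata
Gstm1, chr3:108017974-108018223, minus strand: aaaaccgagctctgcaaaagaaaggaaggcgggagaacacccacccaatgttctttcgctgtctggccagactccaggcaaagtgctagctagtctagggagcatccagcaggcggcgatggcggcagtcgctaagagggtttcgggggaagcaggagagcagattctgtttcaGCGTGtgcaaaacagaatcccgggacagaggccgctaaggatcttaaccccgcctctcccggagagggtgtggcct
Gstm2, chr3:107986421-107986670, minus strand: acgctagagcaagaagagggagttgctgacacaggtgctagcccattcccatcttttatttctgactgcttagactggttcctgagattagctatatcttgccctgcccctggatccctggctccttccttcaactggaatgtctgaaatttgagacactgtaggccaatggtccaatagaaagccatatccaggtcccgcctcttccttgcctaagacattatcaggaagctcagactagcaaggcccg
Ugt8a, chr3:125938653-125938902, minus strand: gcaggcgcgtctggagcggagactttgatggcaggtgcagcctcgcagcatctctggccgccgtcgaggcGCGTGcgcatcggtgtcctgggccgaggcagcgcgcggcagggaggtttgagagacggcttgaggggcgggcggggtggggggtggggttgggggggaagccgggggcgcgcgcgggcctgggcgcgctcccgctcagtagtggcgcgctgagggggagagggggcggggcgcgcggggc
Of all 32851 promoter windows of this length, 28.2% held GCGTG, 10.2% TGACNNNGC and 14% AGGTCA. Counting the base before the start site as -1, GCGTG matched at -76 to -72 in both Cyp1b1, where the line reads CACGC, and Gstm1. It matched at -180 to -176 in Ugt8a. TGACNNNGC matched at -121 to -113 in Gsta3 and AGGTCA at -221 to -216 in Cyp2f2, while the Gstm2 window held none of the 3. Over the 29 genes with an entry, 10 held GCGTG, 3 TGACNNNGC and 3 AGGTCA in the first listed window. No matches overlapped in the windows shown. A match describes the letters only.

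Most of these enzyme genes had low intensities in the mammary gland. Each gene was followed by its probe set with the highest mean, and intensities are in the arbitrary linear units of the deposited table. A gene passed the filter if its intensity was 139 or more (the median over the whole table) on at least 1 array. Anything under 20.5, the 25th percentile over the table, was raised to 20.5 as a floor before folds were taken. By this rule 38 of the 116 genes passed (32.8%, against 63.2% of all named genes), and 51 of the 78 that did not pass were under the floor on all 4 arrays. Aldehyde dehydrogenases and glutathione S-transferases passed in 12 of 17 genes each, P450s in 11 of 62, sulfotransferases in 2 of 11 and UDP-glycosyltransferases in 1 of 9. Of the 38, 32 reached 139 on all 4 arrays. The other 6 (Cyp24a1, Cyp2j6, Cyp7b1, Gsta3, Sult5a1 and Ugt8a) passed through only some of the arrays, so that a difference was more likely to be found in them.

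Several P450 subfamilies best known from liver were low on these probe sets, but Cyp2e1 was not (8250.8 to 12894.2). All 5 Cyp3a genes, the main drug-metabolising P450s of liver, were under the floor on every array. None of 11 Cyp2c genes passed, with a highest intensity of 37.3, and none of 4 Cyp2b genes, with a highest of 35.2. The bile acid enzymes Cyp7a1 and Cyp8b1 stayed at or under 9.8 and 14. Of the genes that make steroid hormones, Cyp11a1 (at most 10.4), Cyp11b2 (11.3) and Cyp17a1 (5.2) were under the floor throughout. All 5 Ugt2b genes, which glucuronidate steroids, were under the floor, as were Sult1e1, the oestrogen sulfotransferase (0.5 to 1.2), and Sult2a2 (0.4 to 0.6). Markers of hepatocytes were low as well, with 4 to 5 of the 7 on the array under the floor on each array.

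Several genes known to respond to ligand-activated receptors in other tissues were among the low ones, though not all. Cyp4a14, the classical P450 target of PPARα in liver, read 0.6 in WT on chow, 2.3 in MMTV-PPARd on chow, 0.9 in WT on GW501516 and 2.7 in MMTV-PPARd on GW501516. Cyp4a12a and Cyp4a31, which like it hydroxylate the end carbon of fatty acids, read at most 8.7 and 5.7. All 3 Cyp4a genes were thus under the floor with the agonist, the transgene and both, although the transgene itself was read: Ppard had an intensity of 2.1 and 1.5 in WT on chow and on GW501516, and of 1943 and 4223.5 in MMTV-PPARd mice. Aldh3a2, which oxidises long-chain fatty aldehydes and is a PPAR target in other tissues, was well read and nearly level, at 310.2 and 352.9 on chow and 360.5 and 364.5 on GW501516 (WT before MMTV-PPARd), a span of 1.18-fold. The retinoic acid hydroxylase Cyp26a1 (2.1 to 17.3) and Cyp27b1, which activates vitamin D (4.0 to 10.8), were under the floor on all arrays. Cyp1a1, the P450 most responsive to dioxin-like ligands, read 7.5, 13.0, 9.9 and 23.5 in WT on chow, MMTV-PPARd on chow, WT on GW501516 and MMTV-PPARd on GW501516. The aromatase gene Cyp19a1 and the retinoic acid hydroxylase Cyp26b1 were not analysed here.

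**Figure D1:**
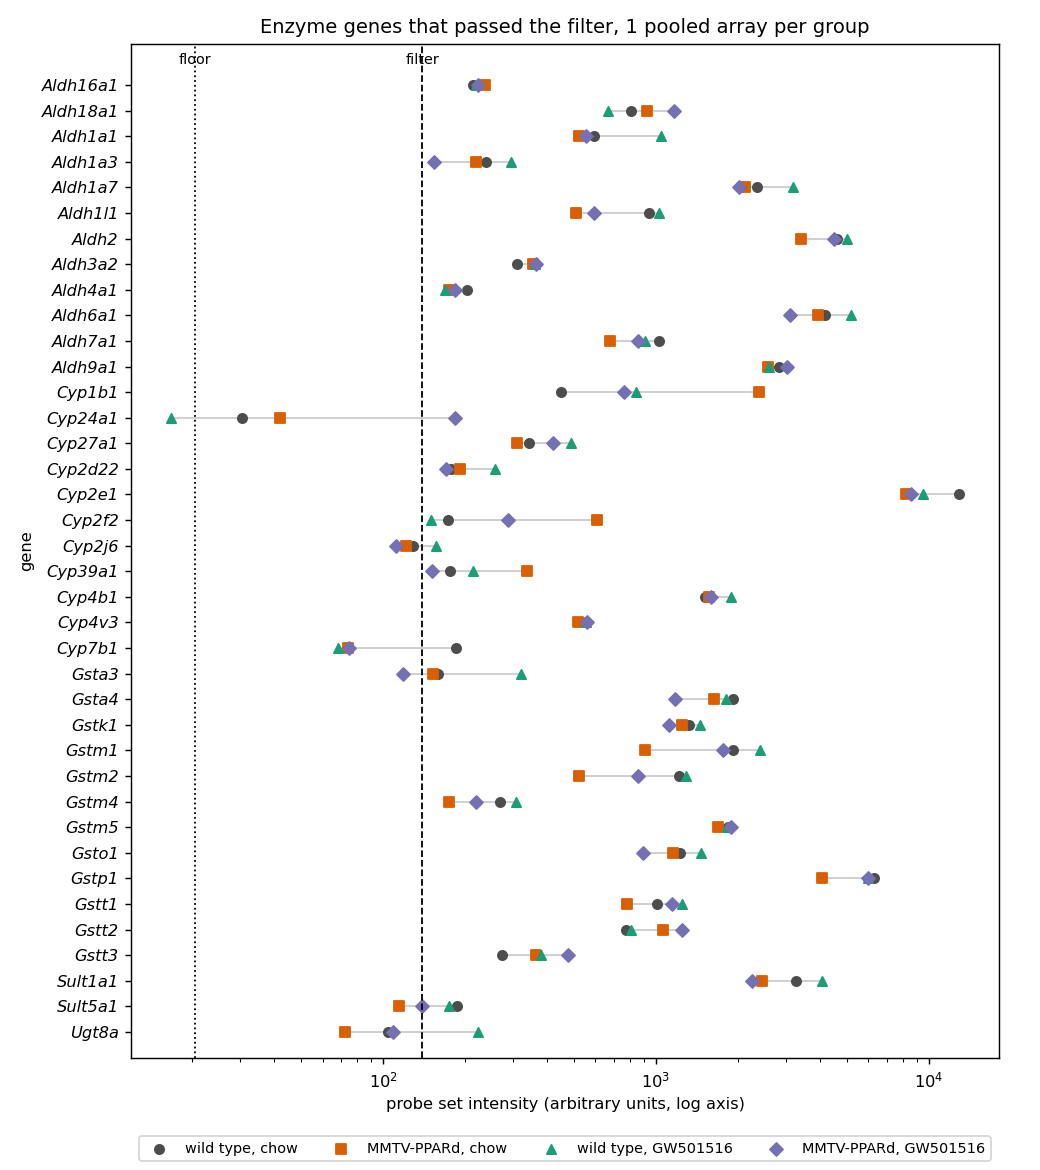
Probe set intensity (arbitrary units, log axis) of the 38 enzyme genes that passed the filter, 1 symbol per pooled array, with the floor of 20.5 (dotted) and the filter value of 139 (dashed). Most genes span less than 2-fold, while Cyp1b1, Cyp24a1, Cyp2f2 and Ugt8a span more than 3-fold.

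Array-wide features bear on every comparison. The array of MMTV-PPARd mice on chow differed from the others in its spiked-in BioB controls, whose 3 probe sets read 19.3 to 34.2 there and 280.5 to 519.0 on the others, and in the 3′ Gapdh control (4000.7 against 6753.4 to 9804.8). The comparisons of GW501516 in WT and of the transgene on GW501516 do not use that array. Markers of neighbouring tissues differed between arrays. Skeletal muscle markers (12 of 12 on the array) summed to 11510 in WT on chow, 27150 in MMTV-PPARd on chow, 107400 in WT on GW501516 and 102200 in MMTV-PPARd on GW501516. In the same order of groups, T cell markers (5 of 8 on the array) summed to 3704, 1120, 114.2 and 94.1 and white adipocyte markers (10 of 12) to 75000, 54450, 79770 and 74990. Luminal epithelial markers (10 of 10) summed to 21660, 33280, 24450 and 37830. Salivary gland markers (7 of 8) summed to 4000, 3011, 9955 and 3720. In bulk tissue, fewer cells of a type and less RNA per cell cannot be told apart.

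Among the P450s, Cyp1b1 and Cyp24a1 stood furthest from level. Cyp1b1, which hydroxylates oestradiol and polycyclic aromatic hydrocarbons and is the extrahepatic P450 of the aryl hydrocarbon receptor pathway, read 448.0 in WT on chow, 2386.1 in MMTV-PPARd on chow, 845.0 in WT on GW501516 and 759.9 in MMTV-PPARd on GW501516. The transgenic chow array alone was high, 2.82-fold above the next. On chow Cyp1b1 was 5.33-fold higher with the transgene, and on GW501516 it was 1.11-fold lower. GW501516 went with a 1.89-fold higher value in WT and a 3.14-fold lower one in MMTV-PPARd mice. A second probe set of Cyp1b1 was also higher with the transgene on chow, at 96.1 in WT and 941.5 in MMTV-PPARd mice (9.80-fold), and was 6.60-fold lower with GW501516 in MMTV-PPARd mice. The third probe set lay under the floor on all arrays but WT on GW501516, where it read 21.1. Ahr, the gene of the aryl hydrocarbon receptor, was also high on that array alone, with 325.6 and 763.6 on chow and 321.5 and 314.0 on GW501516 (WT before MMTV-PPARd). The low BioB controls of the transgenic chow array move with both genes, and their part in these values was not tested.

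Cyp24a1, the mitochondrial enzyme that inactivates vitamin D, was near the floor on 3 arrays and read on the fourth. Its intensity was 30.4 in WT on chow, 41.9 in MMTV-PPARd on chow, 16.7 in WT on GW501516 and 182.7 in MMTV-PPARd on GW501516. It was 4.36-fold higher with GW501516 in MMTV-PPARd mice, and at least 8.91-fold higher in MMTV-PPARd than in WT mice on GW501516. These folds depend on the floor: with it at the 40th percentile of all values both log2 differences came to 1.36, against 2.12 and 3.16 here. Its second probe set was under the floor on all 4 arrays and gives no check. Vdr, the vitamin D receptor, read 99.4 in WT and 318.4 in MMTV-PPARd mice on chow and 129.5 and 298.6 on GW501516, which is 3.20-fold and 2.31-fold higher with the transgene. Vdr was thus high on both transgenic arrays and Cyp24a1 on 1 of them. Milk protein markers summed to 108100 on the array where Cyp24a1 was high and to 16750 to 45630 on the others, and their part in its values was not tested.

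Cyp2f2, the Clara cell P450 of the lung that activates naphthalene, read 172.8 in WT on chow, 606.7 in MMTV-PPARd on chow, 150.1 in WT on GW501516 and 286.0 in MMTV-PPARd on GW501516. Both transgenic arrays lay above both WT arrays, by 3.51-fold on chow and 1.91-fold on GW501516. Luminal epithelial markers were also higher on both transgenic arrays (33280 and 37830, against 21660 and 24450 in WT), and their part was not tested. Cyp39a1, an oxysterol 7α-hydroxylase, had intensities of 175.5, 335.6, 213.0 and 150.9 in the same order and was 2.22-fold lower with GW501516 in MMTV-PPARd mice. Cyp7b1, the other oxysterol 7α-hydroxylase, which also hydroxylates an androgen metabolite, was high in WT on chow alone, at 184.6 against 74.2 in MMTV-PPARd on chow, 68.1 in WT on GW501516 and 75 in MMTV-PPARd on GW501516. That is 2.71-fold lower with GW501516 in WT and 2.49-fold lower with the transgene on chow, and its second probe set gave 2.63-fold and 2.21-fold. Lymphocyte markers were also highest in WT on chow (3704 for the T cell list, 2814 for the B cell list), and their part in the Cyp7b1 values was not tested.

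The remaining P450s that passed differed by less than 2-fold between any 2 arrays. Cyp2e1, which oxidises ethanol and small solvents and is strongly expressed in fat tissue, read 12894.2 in WT on chow, 8250.8 in MMTV-PPARd on chow, 9534.0 in WT on GW501516 and 8601.0 in MMTV-PPARd on GW501516, a span of 1.56-fold with WT on chow the highest. Cyp4b1, a fatty acid and xenobiotic P450, ranged from 1507.3 to 1883.9 (1.25-fold). Cyp4v3, a fatty acid ω-hydroxylase, ranged from 515.9 to 557.1 (1.08-fold). Cyp27a1, the mitochondrial sterol 27-hydroxylase, read 343.0 and 310.5 on chow and 487.1 and 419.8 on GW501516 (WT before MMTV-PPARd), so that both GW501516 arrays lay above both chow arrays, by 1.42-fold in WT and 1.35-fold in MMTV-PPARd mice. Cyp2d22 (169.5 to 256.8) and Cyp2j6 (111.6 to 155.8) were highest in WT on GW501516.

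**Figure D2:**
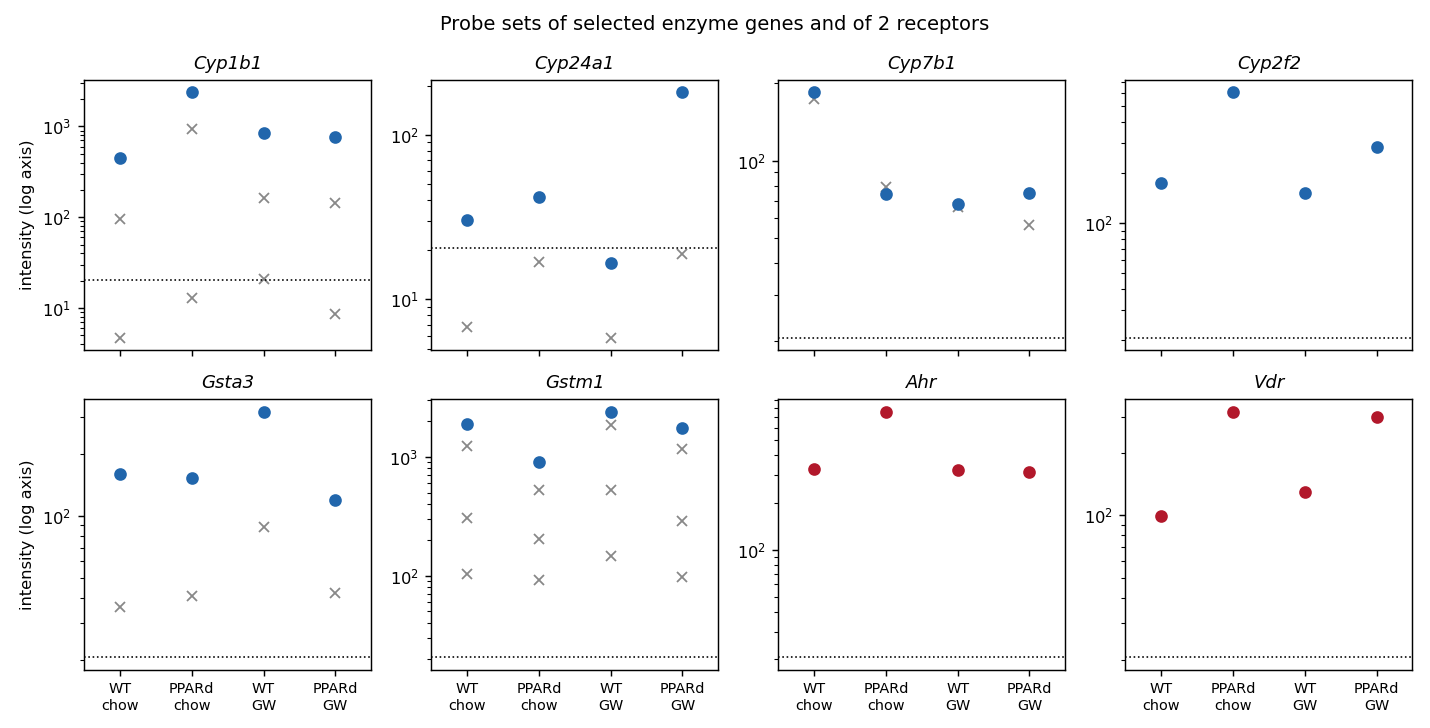
Intensity (log axis) of every probe set of 6 enzyme genes on the 4 arrays, filled for the probe set followed and crosses for others, with Ahr and Vdr beside them and the floor of 20.5 dotted. Cyp1b1 and Ahr are high on the transgenic chow array alone, whereas Vdr is high on both transgenic arrays.

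None of the 12 aldehyde dehydrogenases that passed differed by 2-fold in any of the 4 comparisons, as was so for 84.0% of all genes that passed. On the probe sets followed, the enzymes that make retinoic acid were highest in WT on GW501516. Aldh1a1 read 592.8 in WT on chow, 520.0 in MMTV-PPARd on chow, 1039.5 in WT on GW501516 and 552.4 in MMTV-PPARd on GW501516, and was 1.75-fold higher with GW501516 in WT and 1.88-fold lower with the transgene on GW501516. Its neighbour on chromosome 19, Aldh1a7, followed at 2335.8, 2122.3, 3187.6 and 2017.3. Near-identical genes can share signal on such arrays, so these values may not be independent. Aldh1a3, the retinaldehyde dehydrogenase of many epithelia, read 237.6, 218.7, 294.7 and 153.7, which is 1.92-fold lower with the transgene on GW501516. A second probe set of Aldh1a3 was highest in WT on chow instead (118.0, against 107.1 in WT on GW501516). Salivary gland markers (9955 summed) were highest in WT on GW501516 too, and their part in the Aldh1a values was not tested. The sum of hepatocyte markers was also highest there (477.1, against 170.4 to 267.4). Only 2 of these 7 markers passed the filter, and with GW501516 in WT 1 was above and 1 below 0. Aldh1a2 did not pass (46.0 to 57.2).

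Other aldehyde dehydrogenases spanned from 1.10-fold (Aldh16a1) to just over 2-fold (Aldh1l1). Aldh2, which clears acetaldehyde, ranged from 3398.4 to 5007.5 (1.47-fold), and Aldh9a1, which oxidises aminobutyraldehyde, from 2580.7 to 3016.1 (1.17-fold). Aldh6a1, of valine and thymine breakdown, read 4166.1 in WT on chow, 3912.5 in MMTV-PPARd on chow, 5173.0 in WT on GW501516 and 3095.2 in MMTV-PPARd on GW501516, a 1.67-fold lower value with the transgene on GW501516. Aldh1l1, the cytosolic folate enzyme that makes tetrahydrofolate from its formyl form, read 942.6 and 1022.6 in WT and 510.4 and 594.8 in MMTV-PPARd mice (chow before GW501516). It was 1.85-fold and 1.72-fold lower with the transgene, and both transgenic arrays lay below both WT arrays. Aldh18a1, the proline synthesis enzyme, went the other way, with 812.8 and 665.3 in WT and 923.8 and 1164.7 in MMTV-PPARd mice, 1.14-fold and 1.75-fold higher. That probe set can match several transcripts, and on chow 2 others of its 5 were lower with the transgene, by 1.53-fold (114.9 and 75.3) and 1.13-fold. White adipocyte markers were lower in the transgenic arrays too, with 10 of 10 below 0 on chow and 8 of 10 on GW501516 (medians of -0.47 and -0.26 on the log2 scale), and their part in these values was not tested.

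Glutathione S-transferases of the mu class were lowest in MMTV-PPARd mice on chow. Gstm1 read 1907.2 in WT on chow, 911.3 in MMTV-PPARd on chow, 2409.2 in WT on GW501516 and 1758.7 in MMTV-PPARd on GW501516, and its neighbour Gstm2 read 1212.1, 520.2, 1287.7 and 861.0. On chow they were 2.09-fold and 2.33-fold lower with the transgene, and on GW501516 Gstm1 was 1.37-fold lower and Gstm2 less than 2-fold lower. Gstm4, the next gene of the cluster on chromosome 3, was 1.53-fold and 1.41-fold lower (268.8 and 175.1 on chow, 307.1 and 218.5 on GW501516), whereas Gstm5, in the same cluster, was nearly level (1689.2 to 1882.2). The 3 other probe sets of Gstm1 were lower with the transgene on chow as well, by 1.14-fold, 1.51-fold and 2.32-fold. With the mean over its probe sets in place of the one followed, Gstm1 was lower by 0.77 on the log2 scale, under 2-fold. Members of this cluster are closely alike and their probe sets may share transcripts. Matrix genes (7 of 7 below 0, median -0.51) and white adipocyte markers were lower on the same array, and their part was not tested.

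Gsta3, an alpha class enzyme that conjugates lipid peroxidation products and aflatoxin, was high in WT on GW501516 alone. Its intensities were 159.3 in WT on chow, 152.0 in MMTV-PPARd on chow, 320.2 in WT on GW501516 and 118.7 in MMTV-PPARd on GW501516, so that it was 2.01-fold higher with GW501516 in WT and 2.70-fold lower with the transgene on GW501516. The second probe set gave 2.44-fold and 2.09-fold. With all arrays brought to a common median, the first of these came to 0.99 on the log2 scale, just under 2-fold. Salivary gland markers were highest on that array (9955 summed, against 3011 to 4000), and their part in the Gsta3 values was not tested. Gsta4, which conjugates hydroxynonenal, read 1920.1 and 1626.2 on chow and 1807.1 and 1173.2 on GW501516 (WT before MMTV-PPARd), a 1.54-fold lower value with the transgene on GW501516.

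Other classes of glutathione S-transferase spanned at most 1.74-fold. Gstp1, the pi class enzyme of epithelia and fat, read 6307.2 in WT on chow, 4051.7 in MMTV-PPARd on chow, 5995.4 in WT on GW501516 and 5982.6 in MMTV-PPARd on GW501516, so the transgenic chow array lay apart below 3 close values. In the theta class, Gstt2 (777.8 and 1058.5 on chow, 810.9 and 1244.4 on GW501516, WT before MMTV-PPARd) and Gstt3 (273.5 and 363.8, 378.8 and 476.0) were higher with the transgene on both diets, by 1.36-fold and 1.54-fold for Gstt2 and 1.33-fold and 1.26-fold for Gstt3. Their neighbour Gstt1 was lower on both, at 1004.2 and 781.9 on chow and 1245.2 and 1148.0 on GW501516. Gstk1, the mitochondrial and peroxisomal kappa class enzyme, ranged from 1112.2 to 1453.8. Gsto1, of the omega class, was 1.63-fold lower with the transgene on GW501516 (1457.1 against 892.0), but its other probe set read 1091.6 and 1143.6 there and went the opposite way.

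Of the sugar and sulfate transferases only 3 genes passed. Sult1a1, the phenol sulfotransferase, read 3244.4 in WT on chow, 2445.5 in MMTV-PPARd on chow, 4059.5 in WT on GW501516 and 2246.8 in MMTV-PPARd on GW501516, 1.33-fold and 1.81-fold lower with the transgene, and both transgenic arrays lay below both WT arrays. Sult5a1 read 186.4, 114.4, 174.0 and 139.3 in the same order, again with both transgenic arrays lowest. Ugt8a makes the galactosylceramide of myelin and epithelial membranes and does not act on drugs. It read 103.8, 72.3, 222.6 and 108.7 and was 2.15-fold higher with GW501516 in WT and 2.05-fold lower with the transgene on GW501516. Its second probe set was under the floor on all arrays. The salivary gland markers given above were highest on the same array as Ugt8a, and their part was not tested.

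Few of these genes differed by 2-fold with GW501516 in WT mice. Ugt8a and Gsta3 were at least 2-fold higher and Cyp7b1 at least 2-fold lower, 2 and 1 of 38 genes (5.26% and 2.63%), against a background of 3.18% and 3.25% of the 7836 genes that passed. More members were above than below 0 (26 and 12), with a median log2 difference of 0.17 beside -0.04 for all genes. Glutathione S-transferases had 9 of 12 above 0 and aldehyde dehydrogenases 8 of 12. For scale, the SD of the gap between probe sets of the same gene was 0.35 to 0.45 on the log2 scale in the 4 comparisons, over 2536 genes with several probe sets. Skeletal muscle markers were higher (median log2 difference 3.83) and T cell markers lower (median -4.99) in the same comparison, and their part in the shift of the members was not tested.

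In MMTV-PPARd mice GW501516 went with a higher Cyp24a1 and lower Cyp1b1, Cyp39a1 and Cyp2f2, 1 and 3 of 38 genes (2.63% and 7.89%), where 3.99% and 4.07% of all genes passed 2-fold. Each of the 3 lower genes had its highest value on the transgenic chow array, which this comparison shares with that of the transgene on chow. The median over the 38 was 0.08, beside -0.03 for all genes, with 24 above 0. Gstm1 (1.93-fold), Gstm2 (1.66-fold) and Gstp1 (1.48-fold) were higher without reaching 2-fold. In the same comparison white adipocyte markers had 9 of 10 above 0 (median 0.39), matrix genes 7 of 7 (0.48) and skeletal muscle markers 12 of 12 (2.05), while T cell markers had 4 of 4 below 0 (-2.80). Their part in the members' values was not tested. The comparisons of GW501516 in the genotypes share no array, and 16 of 38 members (42.1%) had the same direction in both, against 56.6% of all genes.

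The transgene on chow went with a higher Cyp1b1 and Cyp2f2 and with lower Cyp7b1, Gstm2 and Gstm1. These were 2 and 3 of 38 (5.26% and 7.89%), beside 5.46% and 3.71% of all genes. Below 0 were 27 of 38 members, with a median of -0.13 where all genes had 0.02. The lean to lower values was found among glutathione S-transferases (10 of 12 below 0, median -0.18) and aldehyde dehydrogenases (9 of 12, -0.13). P450s had a median of 0.05, which turned to -0.02 with all arrays brought to a common median. White adipocyte markers were lower (median -0.47) and luminal epithelial markers higher (median 1.56) in the same comparison, and their part in the lean was not tested.

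On GW501516 the transgene went with a higher Cyp24a1 and lower Gsta3 and Ugt8a, 1 and 2 of 38 (2.63% and 5.26%), beside 2.82% and 1.19% of all genes. The members again lay lower as a group, with 26 of 38 below 0 and a median of -0.23 where all genes had 0.00. The median was -0.42 for glutathione S-transferases (9 of 12 below 0), -0.15 for P450s (7 of 11) and -0.12 for aldehyde dehydrogenases (7 of 12). Under both other scalings these 3 medians stayed below 0. The comparisons of the transgene on the 2 diets share no array. Lower on both diets were 22 of 38 members (57.9%), against 27.6% of all genes, and 7 (18.4%) were higher on both, against 30.0%. None of the 38 differed by 2-fold in the same direction on both diets or in both genotypes. The share over all genes was not counted for this. Few members were at 2-fold in any comparison, so little overlap was possible. In each of the 4 comparisons the counts at 2-fold differed from the background share of 38 genes by fewer than 2 genes. The white adipocyte median of -0.26 moves with the transgene on GW501516 as well, and its part was not tested.

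**Figure D3:**
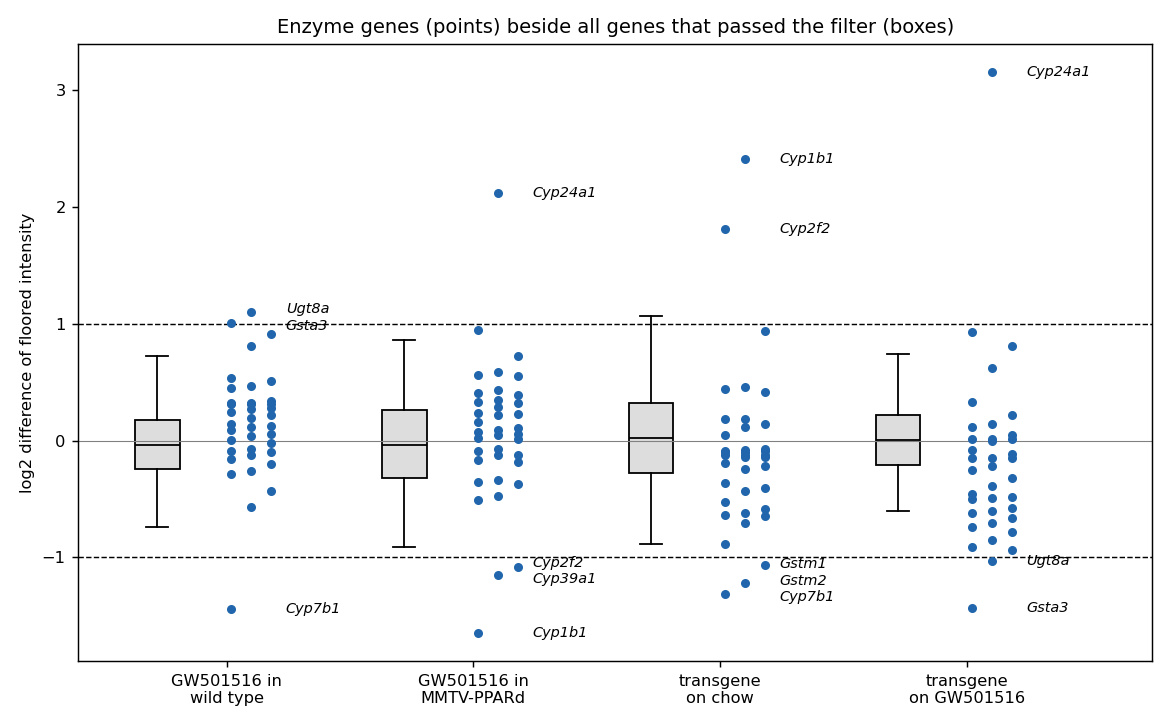
Log2 difference of floored intensity in the 4 comparisons for the 38 enzyme genes (points), beside all 7836 genes that passed (box: quartiles and median, whiskers: 5th to 95th percentile), with 2-fold dashed. Points at 2-fold or more are named, and the points of both transgene comparisons lie mostly below 0.

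**Figure D4:**
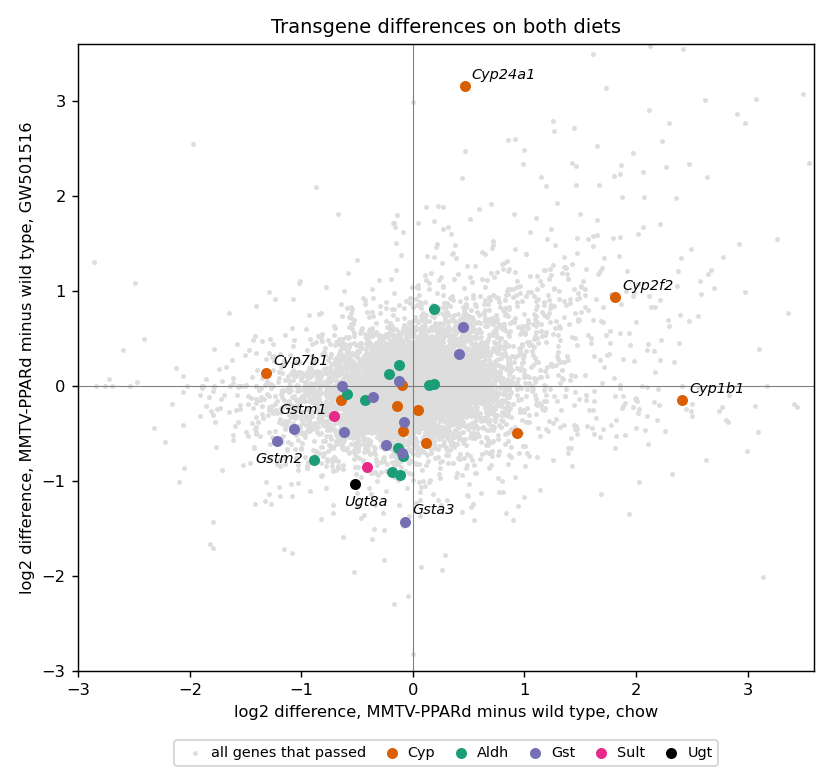
Log2 difference of MMTV-PPARd minus wild type on chow (x axis) and on GW501516 (y axis), with enzyme genes coloured by superfamily over all genes that passed in grey, of which 45 lie outside the axes. Of the 38 enzyme genes, 22 lie in the lower left quadrant, lower on both diets, while Cyp24a1 stands apart upwards and Cyp1b1 and Cyp2f2 to the right.

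In 5 members the GW501516 effect differed between the genotypes by at least 2-fold. It was positive for Cyp24a1 (at least 2.69 on the log2 scale) and Cyp7b1 (1.45) and negative for Cyp1b1 (-2.57), Cyp39a1 (-1.43) and Gsta3 (-1.36). These 2 and 3 of 38 (5.26% and 7.89%) compare with 4.43% and 5.25% of all genes. Of all genes at 2-fold, 45.8% were on the positive side, and 55.8% were with all arrays brought to a common median, while the members stayed at 2 and 3. In 6 members 1 array lay at least 2-fold above the other 3: Cyp1b1 and Cyp2f2 in MMTV-PPARd on chow, Gsta3 and Ugt8a in WT on GW501516, Cyp7b1 in WT on chow and Cyp24a1 in MMTV-PPARd on GW501516. Over all genes this held for 3.45%, beside these 6 of 38. Of the 6, Cyp24a1, Cyp7b1 and Ugt8a passed the filter only through the array on which they were high. The count of 6 is thus not read as an excess. In the other 2-fold members, Gstm1, Gstm2 and Cyp39a1, no array lay 2-fold apart from all the others. Gstm1 and Gstm2 were lowest in MMTV-PPARd on chow, 1.93-fold and 1.66-fold below the next array.

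Partner genes of the same pathways were counted against the same backgrounds as above. Of 16 P450 partners and microsomal oxidases that passed, none differed by 2-fold in any comparison, where 16% of all genes did so in at least 1. With the transgene, 12 of 16 were below 0 on chow and 11 of 16 on GW501516 (medians of -0.36 and -0.30), beside 48.0% and 49.5% of all genes. White adipocyte markers were lower in both of these comparisons (medians of -0.47 and -0.26), and their part was not tested. Of 16 genes of glutathione, UDP-glucuronate and sulfate supply, Gpx3, the secreted glutathione peroxidase, was 3.63-fold lower with the transgene on chow (6389.8 and 1760.2) and 2.01-fold higher with GW501516 in MMTV-PPARd mice (3531.6). Sulf2, which trims sulfate from heparan chains, was 2.07-fold higher in the latter comparison (364.4 and 755.1). That is 1 of 16 lower with the transgene on chow and 2 of 16 higher with GW501516 in MMTV-PPARd mice. Over all genes these shares were 3.71% and 3.99%. Of 9 xenobiotic receptors and regulators Ahr alone passed 2-fold, where 16% of all genes did so in at least 1 comparison. Nr1i2 and Nr1i3, the receptors PXR and CAR that switch on Cyp3a and Cyp2b in liver, were under the floor on every array. Nfe2l2, the gene of NRF2, was level (1582.3 to 1793.8).

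Of 10 retinoid genes that passed, Crabp2, which carries retinoic acid to its nuclear receptors, was 6.15-fold higher with the transgene on chow (129.5 and 795.9) and 8.07-fold on GW501516 (149.6 and 1206.5). Luminal epithelial markers were also higher with the transgene, 8 of 10 on chow (median 1.56) and 9 of 10 on GW501516 (median 0.68). Their part in the Crabp2 values was not tested. Crabp1 was 2.86-fold lower with GW501516 in MMTV-PPARd mice (500.6 and 174.8). Crabp2 was the 1 of 10 genes at least 2-fold higher with the transgene on each diet, beside 5.46% (chow) and 2.82% (GW501516) of all genes. Crabp1 was the 1 of 10 at least 2-fold lower in its comparison, beside 4.07%. The retinaldehyde dehydrogenases Aldh1a1 and Aldh1a3 were lower with the transgene on both diets, by 1.14-fold and 1.09-fold on chow. Of 8 steroid and vitamin D genes, 1 was higher and 3 were lower by 2-fold with the transgene on chow (5.46% and 3.71% of all genes), and 2 were lower with GW501516 in WT (3.25%). Akr1c18, which inactivates progesterone, was 5.56-fold lower with the transgene on chow (763.4 and 137.4) and 2.29-fold lower with GW501516 in WT (333.3). In MMTV-PPARd mice it was 2.49-fold higher with GW501516 (341.8). Akr1c14, a 3α-hydroxysteroid dehydrogenase, was 2.27-fold lower with the transgene on chow (1743.0 and 768.9). Hsd11b2, which inactivates glucocorticoids, was 2.59-fold lower there (141.2 and 54.5) and 2.04-fold lower with GW501516 in WT (69.1). Hsd11b2 passed the filter only through WT on chow, and Vdr, the 1 higher gene, only through the transgenic arrays. A difference was thus more likely to be found in both, and the counts of steroid and vitamin D genes are not read as an excess. Of 6 efflux transporters, Abcb4, the phospholipid floppase, was higher with GW501516. It was 5.59-fold higher in WT (48.0 and 268.4) and 2.67-fold in MMTV-PPARd mice (81.1 and 216.9). Abcb4 passed the filter only through the GW501516 arrays, which likewise made a difference more likely to be found. Skeletal muscle markers were higher in both comparisons too (medians of 3.83 and 2.05), and their part was not tested.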

How the data were processed

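Intensities were deposited for 22690 probe sets on 4 arrays, on a linear scale. Per the labels' protocols, biotin-labelled cRNA was prepared from RNA of 5 mice pooled per group. After trimming 2% at each end, array means ran from 500.17 to 500.2, as after scaling to one target. The scanner software and summarisation method is not given in the sources used here. Symbols came from the platform annotation, updated by gene ID through RefSeq: 20393 probe sets had 1 symbol (20364 matched), 691 had several and 1606 were unnamed.

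A gene was represented by its probe set of highest mean. The floor was 20.5 and the filter 139 on at least 1 array, leaving 7836 genes. Log2 differences were taken in Python 3.11.15 with pandas 2.3.3, and "called" or 2-fold means a difference of at least 2-fold. With 1 array per group no test, p-value or SE was computed, and precision is limited by the number of arrays. The steps were run on simulated data with less noise than the gaps between probe sets of the same gene here. Only well-read genes were changed in it, by well over 2-fold. That run checks the calculation and not the precision of values near the floor or near 2-fold. Promoter windows came from RefSeq (GRCm38.p6). The closing section gives the effect of other scalings, floors, filters and probe set rules.

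Genes named were members at 2-fold in a comparison or in the difference of GW501516 effects, the members with the highest means overall or in their family, and a list named for known roles. Up to 3 genes of each pathway list at 2-fold per comparison were added. Members under 2-fold outside this rule, such as Aldh1l1, Aldh18a1, Cyp2d22, Cyp2j6 and Gstm4 and the low liver-type genes, and the partner genes Nr1i2, Nr1i3 and Nfe2l2, were chosen after their values were seen. The members and lists were chosen with earlier results of these data known. Of each partner list, 1 to 4 genes are not analysed here.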

Additional observations from a re-analysis of the deposited data

Results flagged for a closer look

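In 5 enzyme genes the GW501516 difference had opposite signs in the genotypes and differed between them by at least 2-fold, although for Cyp7b1 the second of these was near 0. The difference of effects, MMTV-PPARd minus WT on the log2 scale, was -2.57 for Cyp1b1 (0.92 in WT, -1.65 in MMTV-PPARd mice), -1.43 for Cyp39a1 (0.28 and -1.15) and -1.36 for Gsta3 (1.01 and -0.36). It was 1.45 for Cyp7b1, with values of -1.44 and 0.02, while its second probe set was lower in both genotypes (-1.40 and -0.49), and at least 2.69 for Cyp24a1 (-0.57 or lower in WT, where 1 array was under the floor, and 2.12). The share of all genes that meet both conditions was not counted. By the difference of effects alone, 5.26% of members were at 2-fold on the positive side and 7.89% on the negative side. Over all genes these shares were 4.43% and 5.25%. With 1 array per group these differences were not tested.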

How the results depend on the processing

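No paired analysis was possible because each group had 1 array. Settings in which a gene failed the filter, or was under the floor on both arrays compared, gave no value and are not counted here. Cyp24a1 with the mean over probe sets is 1 such case. A change of filter cannot change a gene's own value, so those settings test only whether it passes. Of the 139 alternative values left for 20 single-gene results, 136 kept their direction and 2-fold, 3 kept their direction under 2-fold and none reversed. Those 3 were Gstm1 on chow with the mean over probe sets (-0.77), Gsta3 in WT with all arrays brought to a common median (0.99) and the difference of effects of Cyp7b1 once shared probe sets, which can match several transcripts, were dropped (0.91). The medians over members in the 4 comparisons kept their direction in all settings but that without a filter, where they were 0.00 over 116 genes. The median of the difference of effects was -0.08 and turned to 0.01 after the median shift and 0.11 with the 75th percentile as filter. With the floor at the 40th percentile, Cyp24a1 kept 2-fold but its log2 differences came to 1.36 both with GW501516 in MMTV-PPARd mice and with the transgene on GW501516. Counts of members, given here as higher and lower, are small, and moves by 1 gene pass 1.5 times. For GW501516 in WT (2 and 1), 1 gene was higher after the median shift or with the mean over probe sets, 3 were lower without a filter, and 0 passed with the 75th percentile as filter, which leaves 23 members. For GW501516 in MMTV-PPARd mice (1 and 3), 2 were higher after the median shift, under quantile normalization or without shared probe sets, 0 with the stricter filter or the mean, and 5 were lower without a filter. For the transgene on chow (2 and 3), 4 and 5 passed without a filter and 1 was higher without shared probe sets. For the transgene on GW501516 (1 and 2), 0 and 0 passed with the stricter filter and 0 and 1 with the mean. For the difference of effects (2 and 3), 0 and 1 passed with the stricter filter, 4 and 8 without a filter, and 1 was higher with the mean. With 1 pool per group, all values describe these 4 pools.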

Other observations

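The symbol rule left out 9 probe sets that carry several gene symbols, and these hold the one well-read glucuronidation locus. The 3 probe sets shared by the Ugt1a genes, which glucuronidate bilirubin, phenols and drugs, were read on every array. The first read 4514.2 in WT on chow, 3955.8 in MMTV-PPARd on chow, 4499.9 in WT on GW501516 and 4164.5 in MMTV-PPARd on GW501516. The second read 1801.6, 1903.7, 2583.4 and 1941.3 in the same order, and the third 1265.2, 1329.8, 1795.8 and 1195.3. The last 2 were highest in WT on GW501516, by 1.43-fold and 1.42-fold over WT on chow, and the first was level between these arrays. The probe set shared by Cyp4a10 and Cyp4a31 was under the floor on all arrays (4.4 to 14.8), and those of Cyp2a4 and Cyp2a5 and of the Cyp3a41 genes read at most 6.5 and 4.5.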
